A study of Mus musculus with 6 samples.

Results

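Rab proteins are small GTPases that mark membranes inside the cell and direct vesicle traffic. Genes of this family were taken as the protein-coding rows of the deposited table whose symbol is Rab, a number and at most 1 further letter, which gave 59 of 32067 rows. They were compared in poly(A) RNA of mouse hippocampus, the brain region that encodes spatial and episodic memory. The OVX+RJ group (3 libraries) came from wild-type female C57BL/6J mice that were ovariectomised on both sides and ate a diet with 1% royal jelly, a glandular secretion of worker honeybees, from 8 to 17 weeks of age, when tissue was taken. The OVX group (3 libraries) came from mice of the same strain, sex, genotype and age, ovariectomised in the same way and kept on a control diet. Both groups therefore lack ovaries, the main source of circulating estrogen, and the comparison is one of diet after ovariectomy. Sham-operated mice, which the protocol also describes, are not analysed here. The labels call each library a biological replicate and say nothing of pooling. The p-values therefore set the group difference against the spread between libraries, which is estimated in part from all genes tested.

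A Rab protein cycles between a GDP-bound form held in the cytosol and a GTP-bound form on a membrane. Exchange factors load GTP, GTPase-activating proteins end the active state, and GDP dissociation inhibitors take the inactive protein off the membrane. In the GTP-bound form it recruits effectors: tethers, motor adaptors, lipid kinases and, at the presynaptic terminal, components of the release machinery. In neurons, members of the Rab3 subfamily sit on synaptic vesicles, Rab5 and Rab11 proteins serve endocytosis and recycling of receptors, Rab7 serves late endosomes and Rab6 serves the Golgi apparatus.

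Membrane attachment depends on prenyl groups on cysteines at the carboxyl end, which Rab geranylgeranyl transferase adds for most Rab proteins. The ends of the reading frames thus show a feature that the choice by symbol did not use. The last 48 bases of the coding sequence, stop codon included, follow for the subfamilies and genes that the comparison turns on, with Rab8a as an example of a single cysteine. They are from GENCODE M21 transcripts on GRCm38, in the sense direction, and capitals mark cysteine codons among the last 5 before the stop.
Rab3a: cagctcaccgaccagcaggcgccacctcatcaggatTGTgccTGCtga
Rab3b: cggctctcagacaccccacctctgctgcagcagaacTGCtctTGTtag
Rab3c: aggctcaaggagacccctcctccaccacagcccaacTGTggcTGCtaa
Rab3d: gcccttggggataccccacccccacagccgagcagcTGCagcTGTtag
Rab5a: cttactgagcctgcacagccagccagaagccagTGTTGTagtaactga
Rab5b: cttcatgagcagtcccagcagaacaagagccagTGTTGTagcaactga
Rab5c: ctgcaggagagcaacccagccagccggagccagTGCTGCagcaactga
Rab6a: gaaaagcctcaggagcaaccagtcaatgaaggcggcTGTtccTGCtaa
Rab6b: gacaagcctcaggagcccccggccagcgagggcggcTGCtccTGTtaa
Rab14: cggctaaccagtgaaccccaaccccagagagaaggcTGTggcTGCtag
Rab39b: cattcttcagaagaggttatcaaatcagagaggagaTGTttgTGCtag
Rab32: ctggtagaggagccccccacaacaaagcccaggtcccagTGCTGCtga
Rab8a: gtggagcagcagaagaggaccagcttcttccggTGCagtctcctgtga

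All 59 genes had at least 1 cysteine codon among the last 5. Of these, 50 had 2 and 9 had 1, namely Rab8a, Rab8b, Rab13, Rab18, Rab23, Rab28, Rab38, Rab40b and Rab40c. The commonest arrangement, in 20 genes, was a cysteine, any residue and a final cysteine, as in the Rab3 and Rab6 genes shown. A pair of final cysteines, as in Rab32, was found in 15 genes. The 3 Rab5 genes share an arrangement found in 6 genes, in which adjacent cysteines are followed by 2 other residues. Paralogs remain distinct at the base level. Rab6a and Rab6b, with 627 coding bases each, were identical at 78.5% of aligned bases, and their longest identical run was 14 bases.

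Depth and the detection of marker genes were checked first. The libraries held between 36084588.5 and 39368206 expected counts in OVX+RJ and between 34718596.5 and 58163785 in OVX, of which the Rab genes took between 227120 and 244464 counts in OVX+RJ and between 212234 and 362493 in OVX. All 60 marker genes, Prox1 of dentate granule cells and Wfs1 of CA1 among them, had a count in at least 1 library. Their lists cover hippocampal and neighbouring cell types, choroid plexus and blood, so detection alone does not test hippocampal identity. The library OVX+RJ 1 stood somewhat apart, with a mean Pearson correlation across genes of 0.983 with the other libraries, against 0.986 to 0.987 for the rest. It held the highest of the 6 values at 16 of 55 tested Rab genes (29.1%) and at 24.5% of all genes tested. The same library held the lowest value at 9 of the 55 Rab genes (16.4%) and at 24.4% of all genes tested. A gene's level is given below as CPM, counts scaled by the library total and the TMM factor, or as CPM per kb where genes are compared with each other.

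The Rab genes ran from a handful of counts in all 6 libraries together to 889 CPM in the highest library of Rab6b. Of the 59, 55 passed the filter on low counts and were tested. Rab17, Rab19, Rab25 and Rab44 did not pass it, with 0 to 8 counts in any library and no more than 0.186 CPM. Mean levels over the 6 libraries were at least 10 CPM in 44 genes, at least 100 CPM in 18 and at least 500 CPM in 3, namely Rab6b, Rab6a and Rab3c. These 3 genes made up 34.7% of all Rab CPM, and the 12 most abundant by CPM made up 70.4%.

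Scaled by the median coding transcript of the GENCODE basic set, the highest level was that of Rab6b, a neuron-enriched Golgi Rab, at 297 ± 14.0 CPM per kb in OVX+RJ and 293 ± 8.32 in OVX (SD, n = 3 each). Rab3a, the main Rab of synaptic vesicles, followed at 271 ± 16.5 CPM per kb in OVX+RJ and 265 ± 18.7 in OVX. Its paralog Rab3c stood at 276 ± 15.5 CPM per kb in OVX+RJ and 252 ± 14.6 in OVX. The libraries of Rab3a and Rab3c overlap on this scale, so their order is not resolved by it, and it turns on the length used. Rab15, an endosomal Rab enriched in neurons, had 256 ± 6.96 CPM per kb in OVX+RJ and 248 ± 19.8 in OVX, and Rab6a, the widely expressed Golgi paralog, had 226 ± 14.2 in OVX+RJ and 205 ± 5.13 in OVX. After them came Rab7, Rab18, Rab11a, Rab2a, Rab1b, Rab14 and Rab1a, with means over the 6 libraries from 181 CPM per kb for Rab7 to 79.2 for Rab1a. The order depends on the length used. With the union of exons Rab6a ranked 1, Rab3a 2, Rab6b 3, Rab3c 9 and Rab15 11. With the longest transcript Rab3a ranked 1, Rab6a 2, Rab6b 3, Rab3c 6 and Rab15 8. Rab3c had 52.6 CPM per kb by the union of exons and 75.1 by the longest transcript, against 169 and 242 for Rab3a. On plain CPM Rab3c was above Rab3a, at 634 against 377 (means over the 6 libraries). With the union of exons 9 of the 12 were still among the top 12, and 8 were under every definition tried (Rab1a, Rab2a, Rab3a, Rab3c, Rab6a, Rab6b, Rab7 and Rab15).

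**Figure D1:**
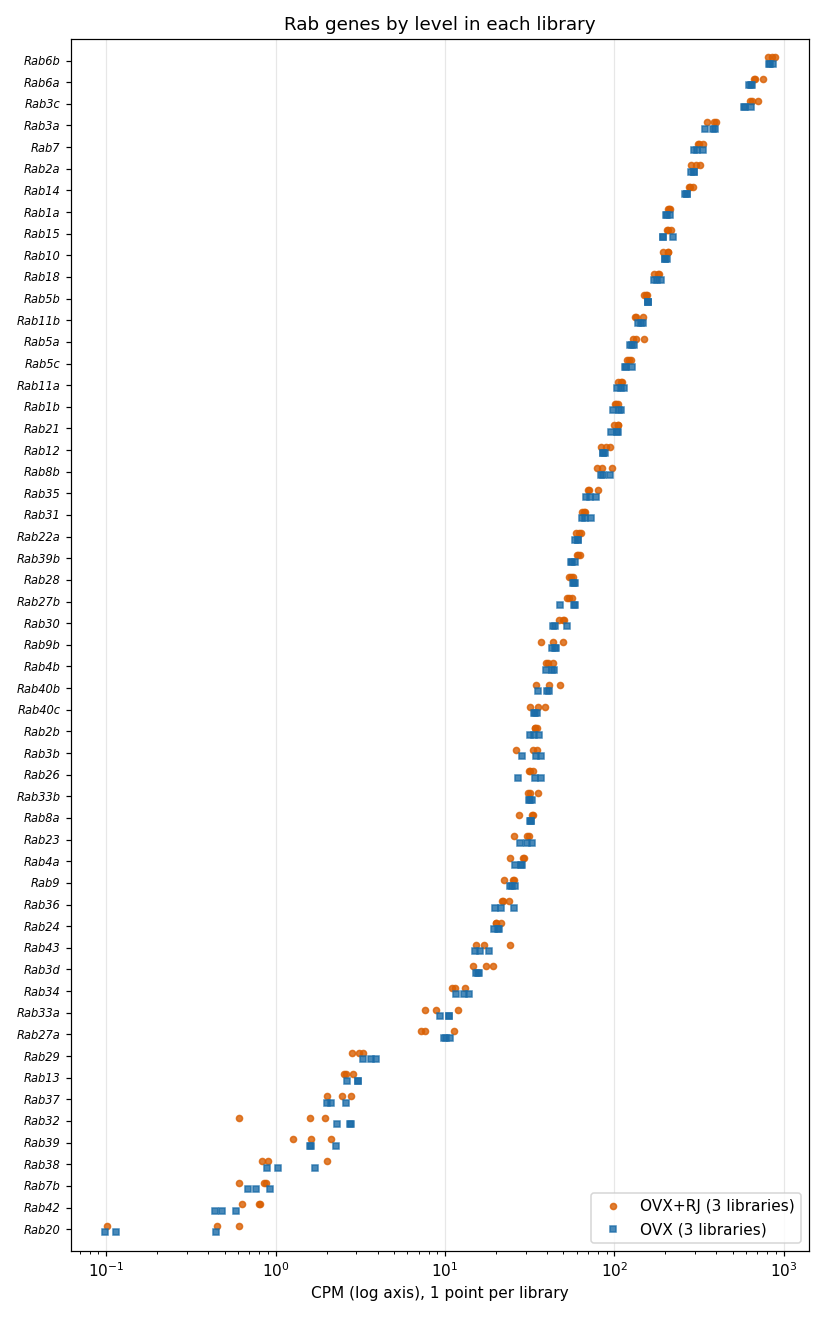
Level of each of the 55 tested Rab genes in every library, in CPM on a log axis, with OVX+RJ as circles above OVX as squares. Levels run from below 1 CPM for Rab20 and Rab42 to 889 CPM for Rab6b, and the 2 groups lie close together at nearly all genes.

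No Rab gene passed an adjusted p of 0.05 between OVX+RJ and OVX when the 18629 genes were tested by quasi-likelihood in edgeR and adjusted after Benjamini and Hochberg, a test that called 0% of genes. The lowest adjusted p among Rab genes was 0.986. DESeq2 on the same counts called 13 genes, 0 of them Rab genes. The log2 fold change was positive at 31 of the 55 genes (56.4%, against 49.6% of all genes) and negative at 24. Its median was 0.019 for the Rab genes and -0.0015 for all genes, and the Rab median ran from 0.0023 (without OVX 1) to 0.031 (without OVX+RJ 2) when 1 library was left out. The sign was kept without each library in turn at 24 of the 55 Rab genes, 16 higher and 8 lower in OVX+RJ. The same share over all genes is not given here. An unadjusted p under 0.05 was reached by Rab6a, with higher values in OVX+RJ, and Rab32, with lower values, which is 3.64% of the Rab genes beside 4.05% of all genes. By direction the background was 2.14% of all genes on the higher side and 1.91% on the lower. The libraries of the groups did not overlap at 6 Rab genes, or 10.9%, beside 10.1% of all genes. Rab6a, Rab39b, Rab14 and Rab42 were higher in all OVX+RJ libraries than in all OVX libraries (4 of 55, beside 4.9% of all genes), and Rab5b and Rab32 were lower (2 of 55, beside 5.17%). Both shares lie near the background of all genes. In bulk tissue such as this, fewer cells of a type and less RNA per cell cannot be told apart.

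Precision was enough to bound most of the differences to within 0.5 log2 units. The 95% interval of the limma log2 difference had a median half-width of 0.18 for Rab genes and 0.30 for all genes. It lay wholly within 0.5 log2 units of 0 at 44 of the 55 Rab genes, beside 10791 of the 18629 genes tested. The other 11 Rab genes were mostly low in this tissue: Rab7b, Rab13, Rab20, Rab27a, Rab29, Rab32, Rab37, Rab38, Rab39, Rab42 and Rab43. The median coefficient of variation over the 6 libraries was 6.71% for the Rab genes and 11.5% for all genes tested. Between 10 and 1000 CPM it was 5.12% for 44 Rab genes and 7.10% for 9973 genes. The steadiest were Rab1a, an ER-to-Golgi Rab, at 2.21%, the early endosomal Rab5b at 2.25% and Rab10, of Golgi-to-surface traffic, at 2.87%. The least steady was Rab20, at 74.3% and under 1 CPM.

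**Figure D2:**
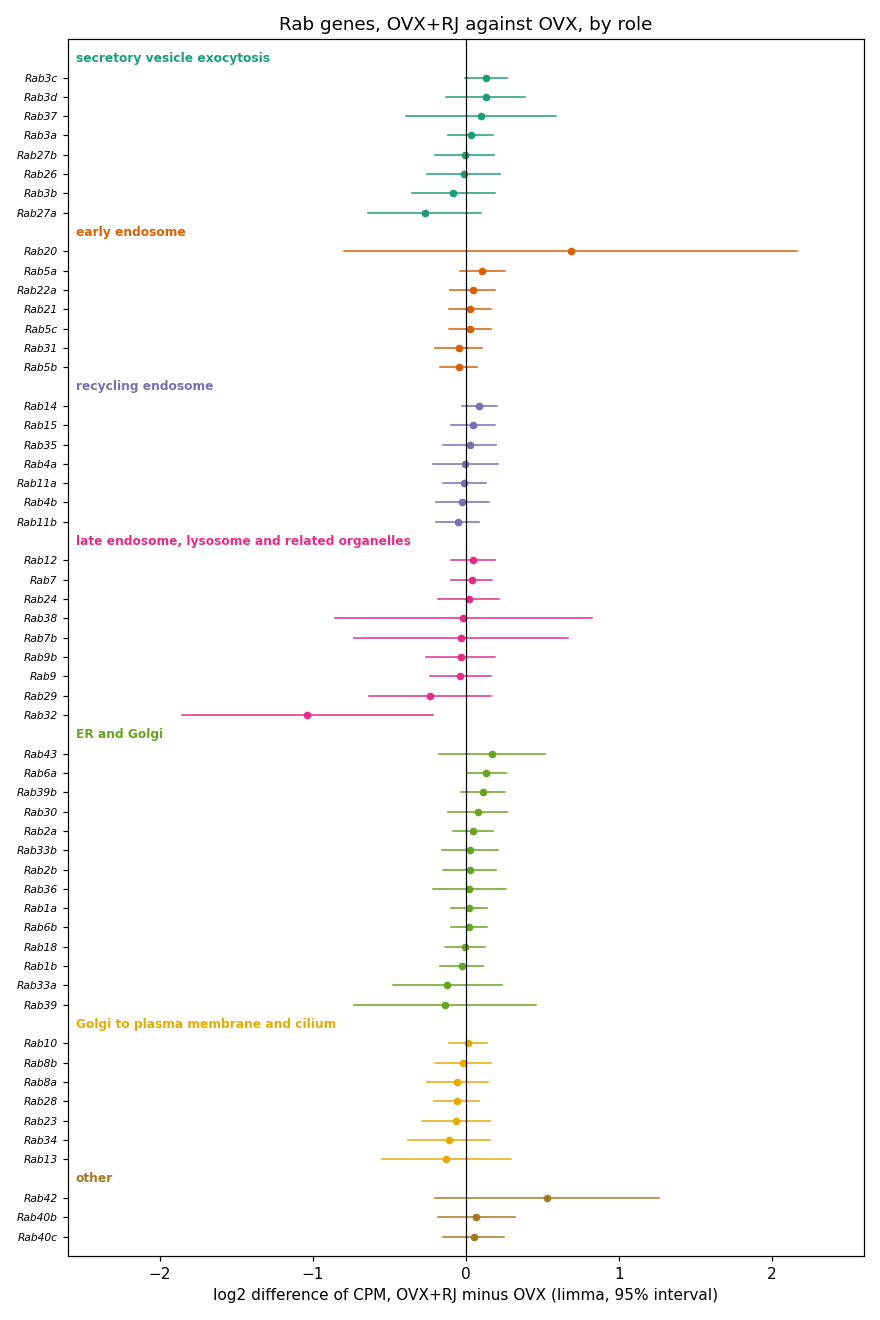
Difference of log2 CPM for each tested Rab gene, OVX+RJ minus OVX, by role, with points for limma's estimate and lines for its 95% interval. The intervals of Rab6a and Rab32 lie to 1 side of 0, and those of the low-abundance genes Rab20, Rab32, Rab38, Rab42 and Rab7b are the widest.

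Among Rabs of regulated secretion, 8 of 8 were tested, 4 with positive and 4 with negative log2 fold changes, a median of 0.0091, and none called. Rab3c had 650, 633 and 705 CPM in OVX+RJ 1, 2 and 3, against 646, 589 and 582 CPM in OVX 1, 2 and 3. Only the value of OVX 1 lay within the range of the OVX+RJ libraries. Its log2 fold change was 0.13 (SE 0.062), with an unadjusted edgeR p of 0.056 and an adjusted p of 0.986. Rab3a had 399, 355 and 390 CPM in OVX+RJ, against 380, 395 and 344 CPM in OVX, which overlap, at a log2 fold change of 0.031 (SE 0.068). Rab3b had 33.1, 26.3 and 35.2 CPM in OVX+RJ, against 34.4, 36.9 and 28.7 CPM in OVX. Rab3d, known from granules of exocrine and endocrine cells, had 17.4, 19.3 and 14.6 CPM in OVX+RJ, against 15.6, 15.2 and 15.9 CPM in OVX. Neither Rab3b nor Rab3d separated the groups. Per kb, Rab3a and Rab3c together carried nearly all of the subfamily, and Rab3d carried 0.775% in OVX+RJ and 0.737% in OVX.

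Rab27 proteins dock secretory granules, melanosomes and exosome-bearing endosomes. Rab27a had 7.17, 11.2 and 7.58 CPM in OVX+RJ, against 10.7, 10.2 and 9.82 CPM in OVX. Its log2 fold change was -0.24 (SE 0.17), and OVX+RJ 2 was above all OVX libraries while the other two were below them. Without OVX+RJ 2 it was -0.47, and without OVX+RJ 1 it was -0.12. Rab27b had 52.5, 56.3 and 54.4 CPM in OVX+RJ, against 48.0, 57.8 and 58.7 CPM in OVX, with a log2 fold change of -0.013 (SE 0.087). Rab26, linked to autophagy of synaptic vesicles, averaged 32.0 ± 0.850 CPM in OVX+RJ and 32.6 ± 4.97 in OVX, and Rab37, of mast cell and other granules, averaged 2.42 ± 0.385 in OVX+RJ and 2.26 ± 0.305 in OVX (SD, n = 3 each). These 4 genes overlapped between the groups.

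Early endosomal Rabs drive fusion of vesicles that arrive from the plasma membrane. Of 8 such genes 7 were tested, 5 positive and 2 negative, with a median log2 fold change of 0.026. Rab5a had 149, 134 and 129 CPM in OVX+RJ, against 123, 131 and 128 CPM in OVX. Its log2 fold change was 0.11 (SE 0.067), with OVX+RJ 1 the highest library, and it was 0.049 without that library. Rab5b had 155, 149 and 154 CPM in OVX+RJ, against 157, 159 and 158 CPM in OVX. Every OVX+RJ value of Rab5b lay below every OVX value, yet the gap was small, at a log2 fold change of -0.048 (SE 0.054) and an unadjusted edgeR p of 0.412. Rab5c averaged 122 ± 3.37 CPM in OVX+RJ and 120 ± 6.08 in OVX, and Rab21, which takes up integrins, averaged 103 ± 2.88 in OVX+RJ and 102 ± 4.99 in OVX (SD, n = 3 each). Rab31 had 66.2, 64.7 and 67.6 CPM in OVX+RJ, against 64.7, 73.4 and 67.1 CPM in OVX, with a log2 fold change of -0.048. Rab22a averaged 61.9 ± 2.23 CPM in OVX+RJ and 60.0 ± 1.21 in OVX.

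Recycling Rabs return receptors from endosomes to the surface, and Rab11 proteins are known for delivering AMPA receptors to spines. Of 8 genes 7 were tested, 4 positive and 3 negative, with a median of 0.0023. Rab14, which works between the Golgi and endosomes, had 277, 291 and 281 CPM in OVX+RJ, against 261, 267 and 270 CPM in OVX. All OVX+RJ libraries were above all OVX libraries, with a log2 fold change of 0.087 (SE 0.052), an unadjusted edgeR p of 0.125 and an adjusted p of 0.986. Rab15 had 207, 204 and 215 CPM in OVX+RJ, against 193, 221 and 193 CPM in OVX. Rab11a had 105, 110 and 111 CPM in OVX+RJ, against 110, 103 and 115 CPM in OVX, and Rab11b had 148, 132 and 134 CPM in OVX+RJ, against 143, 148 and 138 CPM in OVX. Rab15 and both Rab11 genes overlapped between the groups, at log2 fold changes of 0.044, -0.011 and -0.053. The fast recycling Rabs Rab4a, Rab4b and Rab35 had log2 fold changes of 0.0023, -0.024 and 0.025, and each changed sign when some single library was left out.

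Late endosomal and lysosomal Rabs numbered 9, all tested, 4 positive and 5 negative, with a median of -0.023. Rab7, which brings late endosomes to lysosomes, had 336, 317 and 312 CPM in OVX+RJ, against 297, 335 and 307 CPM in OVX. It overlapped between the groups, at a log2 fold change of 0.037 (SE 0.061). Rab32, which serves lysosome-related organelles and mitochondria, had 1.97, 0.606 and 1.60 CPM in OVX+RJ, against 2.79, 2.75 and 2.31 CPM in OVX. These values rest on 74, 24 and 58 counts in OVX+RJ and 98, 160 and 94 counts in OVX. Every OVX+RJ library was below every OVX library, and OVX+RJ 2 was far below the other two. The log2 fold change was -0.91 (SE 0.37), with a limma interval from -1.9 to -0.22, an unadjusted edgeR p of 0.025 and an adjusted p of 0.986. Without OVX+RJ 2 it was -0.55, and without OVX+RJ 1 it was -1.25. The summed level of 5 microglia markers was 176 to 187 CPM in OVX+RJ and 189 to 191 in OVX, with none of the 5 at 0. Of these markers 2 had positive and 3 negative log2 fold changes. Csf1r alone was apart (20% of the list, beside 10.1% of all genes), at 77.8 ± 0.513 CPM in OVX+RJ and 84.5 ± 1.67 in OVX (SD, n = 3 each). The 4 markers of pericytes and smooth muscle, none at 0, were all negative, and summed to 135 to 143 CPM in OVX+RJ and 152 to 159 in OVX. The groups were apart at 3 of them (75%, beside 10.1% of all genes). The part of either cell type in the values of Rab32 was not tested. Rab29, a Golgi and lysosome Rab that recruits the kinase Lrrk2, had 2.82, 3.11 and 3.28 CPM in OVX+RJ, against 3.28, 3.66 and 3.93 CPM in OVX, with a log2 fold change of -0.24 (SE 0.18). The highest OVX+RJ library and the lowest OVX library nearly coincided, so the groups just overlap.

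**Figure D3:**
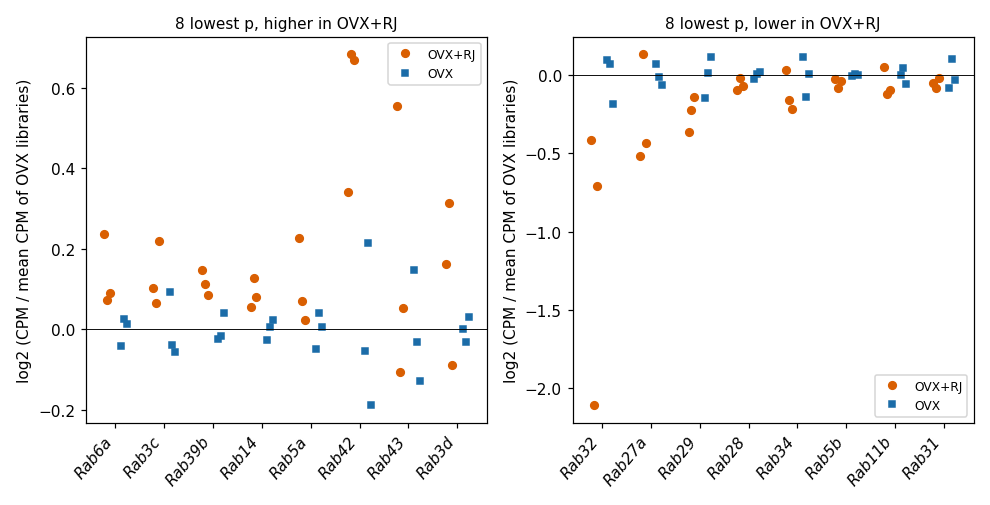
Each library's CPM as a log2 ratio to the mean of the OVX libraries, for the 8 Rab genes with the lowest unadjusted p among those higher in OVX+RJ (left) and the 8 among those lower (right), with circles for OVX+RJ and squares for OVX. The groups are separate at Rab6a, Rab39b, Rab14, Rab42, Rab32 and Rab5b, and at Rab32 the library OVX+RJ 2 lies far below the other two of its group.

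Rabs of the ER and Golgi form the largest group by role and by level. Of 15 genes 14 were tested, 10 positive and 4 negative, with a median of 0.022 and none called. Rab6a had 753, 672 and 680 CPM in OVX+RJ, against 621, 651 and 645 CPM in OVX. All OVX+RJ libraries were above all OVX libraries, with OVX+RJ 1 the highest by a wide margin. The means were 702 ± 44.3 CPM in OVX+RJ and 639 ± 16.0 in OVX (SD, n = 3 each). This is a log2 fold change of 0.14 (SE 0.058), and the adjusted p was 0.986 in edgeR. Its limma interval ran from 0.0070 to 0.26 and its unadjusted edgeR p was 0.038. Without OVX+RJ 1 the log2 fold change was 0.084. Rab6b had 889, 809 and 853 CPM in OVX+RJ, against 828, 866 and 822 CPM in OVX, which overlap, at a log2 fold change of 0.020 (SE 0.054).

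Rab39b, a Golgi Rab whose loss in people causes X-linked intellectual disability with early parkinsonism, had 62.7, 61.3 and 60.2 CPM in OVX+RJ, against 55.7, 56.0 and 58.3 CPM in OVX. The groups were apart, with a log2 fold change of 0.12 (SE 0.065), an unadjusted edgeR p of 0.103 and an adjusted p of 0.986. Its paralog Rab39 was low, at 1.67 ± 0.425 CPM in OVX+RJ and 1.83 ± 0.379 in OVX (SD, n = 3 each). Rab1a, which carries cargo from ER to Golgi, had 208, 212 and 213 CPM in OVX+RJ, against 206, 215 and 203 CPM in OVX. Rab1b had 100.5, 105 and 103 CPM in OVX+RJ, against 107, 110 and 98.4 CPM in OVX. Rab2a, of the same early secretory step, had 320, 302 and 282 CPM in OVX+RJ, against 283, 298 and 294 CPM in OVX. These 3 genes overlapped between the groups, with log2 fold changes of 0.020, -0.027 and 0.049. Rab18, of ER and lipid droplets, had 180, 182 and 172 CPM in OVX+RJ, against 178, 171 and 188 CPM in OVX, at a log2 fold change of -0.0073. Rab43 had 24.1, 15.2 and 17.0 CPM in OVX+RJ, against 18.2, 16.1 and 15.0 CPM in OVX. Its log2 fold change of 0.20 came down to -0.021 without OVX+RJ 1.

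Rabs of Golgi-to-surface traffic and the cilium numbered 7, all tested, with 1 positive and 6 negative log2 fold changes and a median of -0.061. The group's values were small: Rab10 was at 0.013, and the others ran from -0.015 for Rab8b to -0.13 for Rab13. Rab10 came to -0.0071 without OVX+RJ 2, and Rab8b to 0.051 without OVX+RJ 1. Rab28, a ciliary Rab, had 54.3, 57.3 and 55.2 CPM in OVX+RJ, against 57.0, 58.2 and 58.8 CPM in OVX. Rab34, needed for cilium formation, had 13.1, 11.5 and 11.0 CPM in OVX+RJ, against 13.9, 11.7 and 12.9 CPM in OVX. Both overlapped between the groups, and their log2 fold changes were -0.061 (SE 0.066) and -0.11 (SE 0.12). No gene of this group reached an unadjusted p under 0.05. Outside these roles, Rab42, a little-studied member, had 0.638, 0.808 and 0.800 CPM in OVX+RJ, against 0.485, 0.584 and 0.442 CPM in OVX, on 24 to 32 counts in OVX+RJ and 17 to 34 counts in OVX. The groups were apart, with a log2 fold change of 0.56 (SE 0.33) and an unadjusted edgeR p of 0.146. Rab40b and Rab40c, which recruit a ubiquitin ligase through a SOCS box, had log2 fold changes of 0.078 and 0.056, and without OVX+RJ 1 these were -0.040 and -0.018.

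Summed over the family, Rab CPM was 6445, 6173 and 6264 in OVX+RJ 1, 2 and 3, against 6050, 6224 and 6034 in OVX 1, 2 and 3. This was 0.629% of counts in OVX+RJ and 0.610% in OVX. The difference of means was 191 CPM, and the groups overlap, since OVX 2 lay above OVX+RJ 2. The ER and Golgi Rabs accounted for 2576 ± 99.3 CPM in OVX+RJ and 2481 ± 42.2 in OVX, and the secretory Rabs for 1190 ± 51.2 in OVX+RJ and 1127 ± 53.8 in OVX (SD, n = 3 each). Golgi-to-surface Rabs stood at 420 ± 17.9 CPM in OVX+RJ and 425 ± 7.09 in OVX. Of the neuronal marker lists, 5 pan-neuronal markers, none at 0, summed to 4818, 4336 and 4500 CPM in OVX+RJ and 4198, 4386 and 4237 CPM in OVX. OVX+RJ 1 was the highest library for both sums. Dentate granule cell markers lay the other way, 5 of 5 negative none at 0, at a median of -0.28 on the log2 scale, with sums of 297, 384 and 244 CPM in OVX+RJ, against 378, 288 and 413 CPM in OVX. Choroid plexus markers were 5 of 5 positive, though Kl was at a log2 fold change of only 0.0006, and Otx2 was at 0 in OVX 1. The 5 markers summed to 25.6 to 52.6 CPM in OVX+RJ and 24.2 to 34.7 in OVX. Their median log2 fold change was 1.29, and the groups were apart at none of them (beside 10.1% of all genes). Astrocyte markers, 5 of 5 detected, summed to 1338 to 1364 CPM in OVX+RJ and 1388 to 1418 in OVX. Of the astrocyte markers 1 was positive and 4 negative, and the groups were apart at none of them (beside 10.1% of all genes). The part of cell makeup in the summed Rab level was not tested.

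Paralogs can exchange places without a change of the total, so each gene's share of its subfamily was taken from CPM per kb. Of 42 subfamilies, 14 had at least 2 members. The groups were apart in 2 of these 14, Rab6 and Rab5, also on plain CPM, through Rab6a and Rab5b, which were already apart as single genes, as were 10.1% of all genes. Rab6a made up 43.8%, 43.3% and 42.3% of Rab6 in OVX+RJ, against 40.8%, 40.9% and 41.9% in OVX, with Rab6b as the remainder. The means were 43.1% ± 0.756 in OVX+RJ and 41.2% ± 0.630 in OVX (SD, n = 3 each), 1.93 percentage points apart. Rab5b made up 27.6%, 28.5% and 29.1% of Rab5 in OVX+RJ, against 30.5%, 29.2% and 30.4% in OVX, and Rab5a made up 34.3% ± 1.44 in OVX+RJ and 32.5% ± 0.512 in OVX. Rab3c made up 47.6% ± 1.40 of Rab3 in OVX+RJ and 45.7% ± 1.91 in OVX, with overlap. That level rests on the length used: on plain CPM it was 60.7% in OVX+RJ and 58.9% in OVX. No share differed by more than 2.61 points between group means. An exact two-sided permutation test of 3 libraries against 3 cannot give a p below 0.1, so none is given for these shares.

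**Figure D4:**
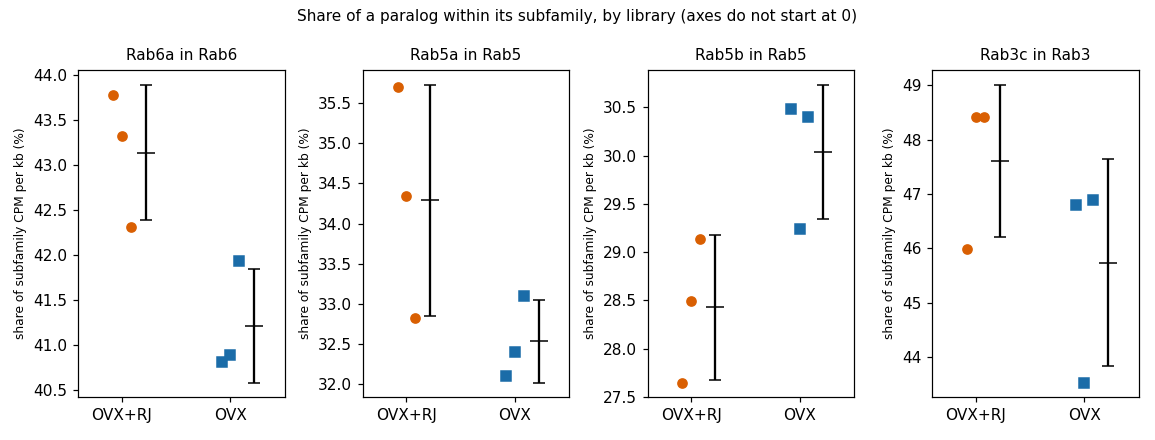
Share of 4 paralogs in the CPM per kb of their subfamily, in percent, with 1 point per library and bars for the mean ± SD of 3 libraries, OVX+RJ left of OVX. Rab6a lies higher in OVX+RJ and Rab5b lower, without overlap, while Rab5a and Rab3c overlap; the vertical axes do not start at 0.

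Shared sequence limits some of these values. In GENCODE M21, 31 of the 59 genes shared no 50-base window with transcripts of any other gene, on either strand, and 16 shared over 5% of their windows. At 50 bases 4 Rab genes shared windows with another Rab gene, at most 0.344% of windows, for Rab11b. At 100 bases no Rab gene did so. The largest shares were 80.3% for Rab4b with Gm21983, 77.0% for Rab43 with Gm45140 and 71.9% for Rab2b with Gm43766 and Tox4 on the opposite strand. Rab6a shared 20.6% of its windows, and 19.3% of its windows were shared with Mrpl48 on the opposite strand. Mrpl48 itself had 59.9, 60.3 and 56.5 CPM in OVX+RJ, against 54.0, 59.9 and 59.2 CPM in OVX. Rab39b shared 16.2% with Gm15063 on the opposite strand, and Rab5b shared 13.0% with Gm13991 on its own strand. The libraries were made with a directional kit, but whether counting used strand, and how reads that align in several places were handled, is not given in the sources used here. Counts of these genes are uncertain to that extent.

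**Figure D5:**
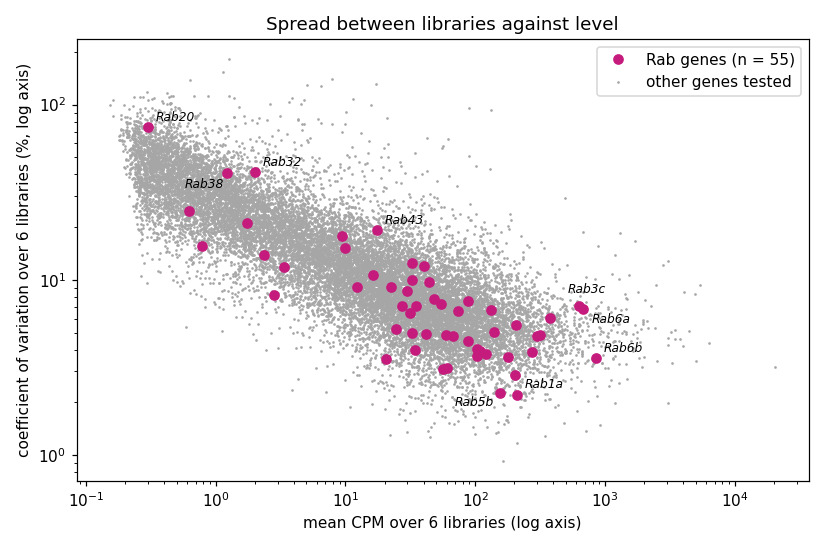
Coefficient of variation over the 6 libraries against mean CPM, both on log axes, for the 55 tested Rab genes (large points) and all other genes tested (small points). The abundant Rab genes lie in the lower part of the cloud, with Rab1a at 2.21% and Rab5b at 2.25%, and Rab20 and Rab32 lie at 74.3% and 41.1%.

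Genes that act on Rab proteins, or are recruited by them, were taken as lists. Of 132 listed regulators and effectors, 131 were in the table and 128 were tested, of which 63 were positive and 65 negative, with no call and a median of -0.0002 on the log2 scale. An unadjusted p under 0.05 was reached by 6 (4.69%, beside 4.05% of all genes), and the groups were apart at 11 (8.59%, beside 10.1%). Both shares lie close to those of all genes. The 7 genes of prenylation and membrane extraction gave 3 positive and 4 negative values and a median of -0.024. Gdi2, a widely expressed GDP dissociation inhibitor, averaged 225 ± 14.6 CPM in OVX+RJ and 219 ± 3.26 in OVX (SD, n = 3 each). Chm, the Rab escort protein, and the transferase subunits Rabggta and Rabggtb had log2 fold changes of 0.083, -0.063 and -0.083.

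Of 34 tested exchange factors, 18 were positive and 16 negative, with a median of 0.0056. An unadjusted p under 0.05 was reached by 2 (5.88%, beside 4.05% of all genes), Rin3 and Rin2, which are known to act on Rab5. The groups were apart at 2 (5.88%, beside 10.1% of all genes), Rin3 on the lower side and Dennd5b on the higher. Rin3 had 1.20, 0.934 and 0.883 CPM in OVX+RJ, against 2.08, 1.84 and 1.72 CPM in OVX. The groups were apart, at a log2 fold change of -0.90 (SE 0.26), with an unadjusted edgeR p of 0.0056 and an adjusted p of 0.986. Rin2 had 28.5, 31.7 and 27.4 CPM in OVX+RJ, against 40.1, 31.5 and 36.6 CPM in OVX. Here OVX+RJ 2 and OVX 2 overlapped, at a log2 fold change of -0.30 (SE 0.10) and an unadjusted edgeR p of 0.012. Dennd5b, a DENN domain protein, had 76.3, 77.0 and 83.5 CPM in OVX+RJ, against 71.9, 68.5 and 74.5 CPM in OVX. It was apart on the higher side, at a log2 fold change of 0.14 (SE 0.068) and an unadjusted edgeR p of 0.067. Dennd4b, of the same domain family, averaged 34.3 ± 1.70 CPM in OVX+RJ and 38.3 ± 3.24 in OVX (SD, n = 3 each), with overlap.

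Of 36 tested genes listed as GTPase-activating proteins, 17 were positive and 19 negative, with a median of -0.0015. Activity of their proteins towards a Rab was not measured. An unadjusted p under 0.05 was reached by 4 (11.1%, beside 4.05% of all genes), 2 in each direction, and the groups were apart at 7 (19.4%, beside 10.1%), 3 higher and 4 lower. Tbc1d5, which acts on Rab7 and binds retromer, had 48.2, 50.3 and 46.4 CPM in OVX+RJ, against 40.8, 41.6 and 40.8 CPM in OVX. All OVX+RJ libraries were above all OVX libraries, at a log2 fold change of 0.23 (SE 0.071), with an unadjusted edgeR p of 0.0054 and an adjusted p of 0.986. Tbc1d23, of the trans-Golgi network, was also apart, at 39.9 ± 1.72 CPM in OVX+RJ and 35.1 ± 0.877 in OVX (SD, n = 3 each). Tbc1d4, the insulin-regulated protein that acts on Rab10, was apart on the lower side, at 7.61 ± 0.442 CPM in OVX+RJ and 9.74 ± 1.00 in OVX. Tbc1d14, which binds Rab11 and affects autophagy, was lower likewise, at 95.2 ± 4.61 CPM in OVX+RJ and 105 ± 2.73 in OVX. Adjusted p was 0.986 for all of them in the edgeR test.

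Of 48 tested effectors, 25 were positive and 23 negative, with a median of 0.014, and none reached an unadjusted p under 0.05. The Rab3 effectors of the presynaptic terminal were close between groups. Rims1, an active zone scaffold, averaged 214 ± 3.99 CPM in OVX+RJ and 214 ± 9.90 in OVX, and Rph3a, rabphilin, averaged 249.5 ± 6.91 in OVX+RJ and 263 ± 10.7 in OVX (SD, n = 3 each). Rab11fip3, which links Rab11 to dynein, had 101, 117 and 108 CPM in OVX+RJ, against 118, 126 and 118 CPM in OVX. Bicd2, the dynein adaptor that Rab6 recruits, had 75.3, 83.5 and 77.5 CPM in OVX+RJ, against 88.6, 85.3 and 85.6 CPM in OVX. At both genes all OVX+RJ libraries were below all OVX libraries, at log2 fold changes of -0.15 (SE 0.069) and -0.14 (SE 0.066), with adjusted p of 0.986 in edgeR. They were the only effectors with groups apart, 2 of 48 (4.17%, beside 10.1% of all genes). Myo5a, a myosin motor of vesicles, averaged 468 ± 31.8 CPM in OVX+RJ and 431 ± 32.6 in OVX, and Rabep2, an effector of endosomal Rabs, averaged 7.01 ± 0.782 in OVX+RJ and 8.44 ± 1.01 in OVX (SD, n = 3 each). Both overlapped between the groups, at log2 fold changes of 0.12 and -0.27. The kinases Lrrk1 and Lrrk2 and the phosphatase Ppm1h, which set phosphorylation of the Rab switch region, had log2 fold changes of -0.28, -0.062 and -0.095.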

How the data were processed

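Hippocampal poly(A) RNA was measured in 3 OVX+RJ and 3 OVX libraries. The values the authors deposited are expected counts for each gene in each library. Tools named in the submitters' processing notes, without roles, are StringTie 2.2.1, HISAT2 2.2.1, fastp 0.23.4 and bcl2fastq 2.19, and the build named there is GRCm39. Values at 51 rows were not whole, none at a Rab gene, and all were rounded. Column names were matched to samples by the library name that each label gives.

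Group tests used edgeR 4.0.16 in R 4.3.3 (filterByExpr, TMM with factors from 0.978 to 1.01, glmQLFit and glmQLFTest, Benjamini-Hochberg adjustment over 18629 genes, threshold 0.05). The common biological coefficient of variation was 0.134. Standard errors and 95% intervals are those of limma 3.58.1 computed on log2 CPM (prior count 2), and fold changes are edgeR's. Levels per kb, shared windows and coding ends come from GENCODE M21 on GRCm38. As this is another build than the authors', no coordinates are given.

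The Rab members, role groups and lists of regulators were chosen with earlier results of these data known. Genes named with values are the 12 highest per kb, the Rab3 and Rab27 subfamilies, the 8 lowest unadjusted p in each direction, up to 4 regulators per list by p, and Gdi2, Rims1, Rph3a and Lrrk2. A further gene named by this rule is not reported here. Other members named by a fold change or mean were chosen after their values were seen. Of the regulators, Dennd2b was not matched by symbol. Alternatives were DESeq2 1.42.0, limma-voom, other scalings and filters, a replicate block, robust empirical Bayes, and fits without each library.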

Additional observations from a re-analysis of the deposited data

How the results depend on the processing

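No Rab gene and no regulator or effector was called under any alternative run. The sign of the log2 fold change was kept without each library at 24 of the 55 Rab genes, with no share over all genes to set beside it. Over all genes, DESeq2 called 13 genes, edgeR with robust empirical Bayes called 3, the replicate block called 1, and leaving out 1 library gave 0 to 8. Rab genes at an unadjusted p under 0.05 numbered 1 with the replicate block and 1 to 3 with a library left out (beside 3.26% to 5.88% of all genes). Those with groups apart then numbered 10 to 13, beside 18.5% to 21.8% of all genes, as fewer libraries were compared. The summed Rab difference ranged from 127 to 254 CPM. The replicate numbers did not pair the libraries: deviations of same-numbered libraries correlated at 0.046, -0.0024 and 0.0031.

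Among genes named by the rule, signs turned at 11, none called, and the cause was not tested. With a library left out the ranges were -0.010 to 0.054 for Rab6b, -0.021 to 0.080 for Rab3a, -0.040 to 0.032 for Rab18, -0.050 to 0.028 for Rab11a, -0.068 to 0.0069 for Rab1b, -0.17 to 0.034 for Rab3b, -0.10 to 0.042 for Rab27b, -0.021 to 0.33 for Rab43, -0.087 to 0.0062 for Rab31, -0.012 to 0.070 for Gdi2 and -0.034 to 0.026 for Rims1. Rims1 also gave 0.0013 with DESeq2 and with its size factors, 0.00055 with limma-voom, 0.00037 with upper quartile scaling, 0.0033 with a mean of at least 50 counts, and 0.00058 with the replicate block.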
